A study of Mus musculus with 2 samples.

Results

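Mitochondrial ribosomal protein genes were taken as the protein-coding genes whose mouse symbol begins with Mrpl or Mrps and a digit. There were 77 of them among the 21461 nuclear protein-coding genes of the tables, 48 named for the large subunit (Mrpl) and 29 for the small subunit (Mrps). Their RNA was measured in 2 total RNA-seq libraries that form 1 group. Each started from 1 ng of total RNA with spike-in RNA added. The cells were primary erythroblasts, which still have a nucleus and mature into red blood cells. The donors were adult male mice of the C57BL/6J strain, 5 to 6 weeks old. The labels name no allele, treatment or second condition, place both biosamples under a single donor entry, and leave unsaid if each library had its own animal. They number the libraries as biological replicates 1 and 2. Every difference between the libraries is therefore a difference between replicates, and no test between conditions was possible.

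Mitochondrial ribosomes translate the few proteins encoded by mitochondrial DNA, all of them parts of the respiratory chain and ATP synthase. Their rRNA is transcribed inside the organelle, whereas all of their proteins are encoded in the nucleus, made in the cytoplasm and imported. Part of these proteins have a counterpart in bacterial ribosomes and part are specific to mitochondria. Erythroblasts use mitochondria for heme synthesis and lose them as they become red blood cells.

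The libraries held 80806663 and 117032607 expected counts (estimated reads per gene), of which nuclear protein-coding genes took 5.44% and 5.82%. Levels are therefore given as rescaled TPM, the deposited TPM (a level per transcript length and library) scaled again so that nuclear protein-coding genes sum to 1000000 in each library. The erythroid markers were high in both libraries, with all 12 genes detected and medians of 3362 and 3155 rescaled TPM. Neutrophil markers were also high: all 10 were detected, their medians were 2013 and 1957, and their summed levels were 43747 and 46265 rescaled TPM. All 7 monocyte and macrophage markers were detected, with medians of 43.6 and 49.8, and all 4 megakaryocyte markers, with medians of 20.3 and 17.8. Of 4 B lineage markers only Cd79b was detected, and of 4 T and NK markers only Nkg7 was, with 0 counts for Cd3d and Cd8a. How much of the members' RNA came from cells other than erythroblasts was not tested, and in bulk RNA fewer cells of a type and less RNA per cell cannot be told apart.

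Some stretches of sequence help to follow the values. The first 120 coding bases of Mrpl23 are shown because a processed pseudogene, Mrpl23-ps1, carries the same letters (chr2:74591773-74591892, minus strand, mm10). Over the 540 bases at which the Mrpl23 mRNA (Mrpl23-201) aligned with the pseudogene, the GENCODE M21 sequences had 0 substitutions and 0 gaps, and these bases held the whole coding sequence. The stretch is printed in lower case throughout because no base of it differs.
Mrpl23: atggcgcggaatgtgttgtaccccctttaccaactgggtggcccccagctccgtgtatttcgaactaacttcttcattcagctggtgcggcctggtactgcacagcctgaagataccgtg

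The next stretches lie before a gene's start and overlap no annotated exon. They are shown because the letters of 2 motifs common in promoters of mitochondrial genes, NRF1 (GCGCATGCG) and ETS (CCGGAAG), were found there on either strand and stand in capitals. All are from RefSeq's GRCm38.p6 and are read in the direction of the member. Mrpl10, Mrps18c and Mrps27 start back to back with another gene, and theirs is the whole stretch between the starts: with Lrrc46 (chr11:97041408-97041559, plus strand), Helq (chr5:100798599-100798626, plus strand) and Ptcd2 (chr13:99344706-99344785, plus strand). The stretch of Mrpl22 (chr11:58171414-58171660, plus strand) holds both motifs.
Mrpl10: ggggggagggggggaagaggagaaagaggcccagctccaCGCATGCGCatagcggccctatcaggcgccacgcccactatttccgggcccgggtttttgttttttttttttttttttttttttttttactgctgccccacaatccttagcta
Mrpl22: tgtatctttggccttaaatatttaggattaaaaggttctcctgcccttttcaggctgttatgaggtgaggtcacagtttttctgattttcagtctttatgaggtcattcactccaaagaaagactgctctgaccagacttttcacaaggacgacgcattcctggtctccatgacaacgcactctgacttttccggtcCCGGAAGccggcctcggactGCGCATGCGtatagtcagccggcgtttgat
Mrps18c: gtgaCTTCCGGcccgggaagcgcgggaa
Mrps27: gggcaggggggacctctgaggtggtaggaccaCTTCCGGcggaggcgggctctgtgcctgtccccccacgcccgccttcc

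Nearly all members were present, at low depth. Of the 77 members, 70 had at least 10 expected counts in both libraries (45 of the large and 25 of the small subunit), against 42.8% of all nuclear protein-coding genes. Together the members held 4507 and 7006 counts, with a median of 49 and 80 a gene and none above 192 and 262. Their share of nuclear protein-coding TPM was 0.163% and 0.166%. Because mitochondrial rRNA entered the authors' scaling, only 22 members reached a deposited TPM of 1 in both libraries, so a threshold on that unit understates how many were read.

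The median member stood at 15.4 and 16.5 rescaled TPM (15.9 ± 0.761, SD, n = 2), beside 14.3 and 14.5 for all nuclear protein-coding genes with 10 counts in both libraries. By their mean, 35 of the 77 members lay below the median of the detected genes, so the members spread over both sides of it. Without the adult globin genes in the total, the members' medians became 27.4 and 29.1. When genes were compared by counts, with no correction for length, the member median was lower than that of all detected genes in both libraries (log2 ratio −1.13 and −1.08), where by rescaled TPM it was higher (0.10 and 0.18). The members' effective length had a median of 855 bases, against 2400 for the detected genes.

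Whether the large subunit stood above the small one by more than the libraries differed depended on the measure. The median of the 48 Mrpl genes was 18.9 and 17.4 rescaled TPM (18.1 ± 1.11, SD, n = 2), and that of the 29 Mrps genes was 12.2 and 16.3 (14.2 ± 2.89, SD, n = 2). The log2 ratio of the large to the small subunit was 0.63 in replicate 1 and 0.09 in replicate 2 (0.36 ± 0.38, SD, n = 2), so by medians of rescaled TPM the difference was no larger than the spread between the libraries. As a difference of mean log2(rescaled TPM + 1) it was 0.34 and 0.35, with an SD of 0.011 between the libraries. By expected counts, scaled so that nuclear protein-coding genes sum to 1000000, the medians were 12.5 and 12.2 for the large and 8.88 and 8.80 for the small subunit (log2 ratio 0.48 ± 0.02, SD, n = 2), also more than the libraries differed. When only protein-coding transcripts were summed, the medians were 8.55 and 11.3 against 9.41 and 9.22, and the order turned in replicate 1. With mitoribosome proteins of other symbols added to each subunit, the log2 ratio was 0.57 and −0.07, so the order turned in replicate 2. The sums, over unequal numbers of members, were 1146 and 1081 against 488 and 581 rescaled TPM.

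**Figure D1:**
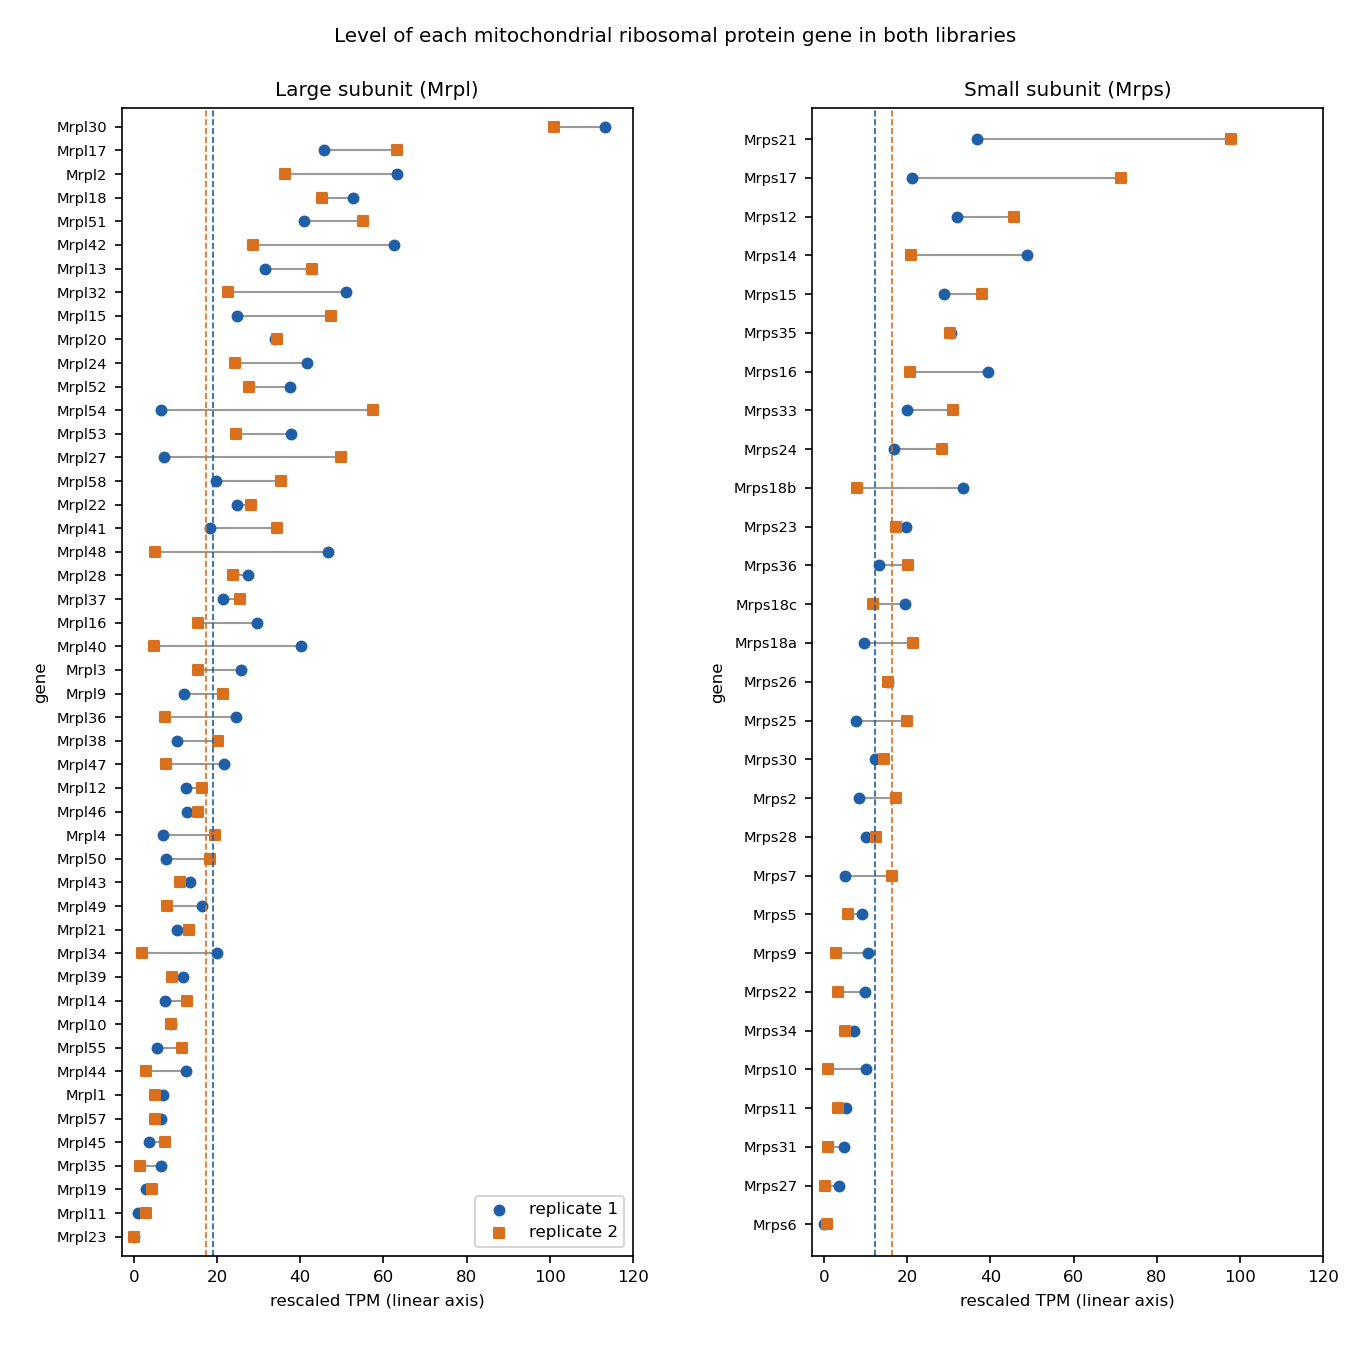
Rescaled TPM (linear axis) of each of the 77 members in replicate 1 (circles) and replicate 2 (squares), joined by a line, with the subunit medians of each library dashed. Mrpl30 leads with 113 and 101, and most other members lie under 50 with lines that often span several neighbours.

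Among the large subunit proteins, Mrpl30 (uL30m, with a counterpart in bacteria) was the highest member, at 113 and 101 rescaled TPM from 182 and 234 counts. It was the only member above 100 in both libraries and ranked above 90.7% of detected genes by its mean. Mrpl17 (bL17m) followed at 45.8 and 63.3, from 112 and 201 counts, and Mrpl18 (uL18m, which in bacteria binds 5S rRNA) stood at 52.6 and 45.3 from the largest counts of any member, 192 and 262. These 3 and Mrpl51 (mL51), specific to mitochondria, at 40.8 and 55.1, were the only members among the 10 highest of both libraries. The rest of the 8 highest Mrpl genes varied more: Mrpl42 had 62.7 and 28.6, Mrpl13 had 31.4 and 43.0, Mrpl2 had 63.3 and 36.3, and Mrpl32 had 51.1 and 22.6.

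Mrpl2 (uL2m), a core protein near the peptidyl transferase centre, rested on few reads, 38 and 39 counts. Its annotated transcript Mrpl2-204, 212 bases long and typed as a processed transcript without a coding sequence, took 15.1 and 11.0 counts but 87.5% and 83.2% of the gene's TPM. Its coding transcripts amounted to 7.91 and 6.08 rescaled TPM. Mrpl32 (bL32m), whose import form is cut by the m-AAA protease before it joins the ribosome, has a single annotated transcript in the tables, which GENCODE M21 types as a target of nonsense-mediated decay. With that type left out, Mrpl32 has no level at all, although it had 109 and 75 counts.

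Proteins of the stalk that recruits translation factors were not among the high members. Mrpl12 (bL12m), the stalk protein also known to bind mitochondrial RNA polymerase, stood at 12.4 and 16.5 rescaled TPM. Mrpl10 (uL10m), which carries the stalk, had 8.98 and 9.02 with nearly equal shares of both libraries. Mrpl11 (uL11m), at the stalk base, was one of the lowest at 0.855 and 2.94, from 8 and 42 counts. Around the exit tunnel, Mrpl22 (uL22m) stood at 24.8 and 28.2 and Mrpl24 (uL24m) at 41.7 and 24.3, while Mrpl45 (mL45), which ties the ribosome to the inner membrane, had 3.64 and 7.45. Mrpl58 (mL62), a peptidyl-tRNA hydrolase also called Ict1, had 19.7 and 35.3.

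Besides Mrpl11, the lowest of the large subunit were Mrpl35 (bL35m) at 6.42 and 1.57, Mrpl19 (bL19m) at 2.78 and 4.31, Mrpl45 and Mrpl23. Mrpl35 and Mrpl19 were read more often than their level says, with 76 and 32 counts for Mrpl35 and 45.3 and 111 for Mrpl19, at effective lengths of 3580 and 4865 bases in replicate 1. Mrpl23 (uL23m) was the only member with 0 counts in both libraries. Its pseudogene Mrpl23-ps1 held 81 and 90 counts, or 54.1 and 38.8 rescaled TPM, with the coding letters printed above in common. Reads within the shared 540 bases cannot be assigned to either copy by sequence, so the 0 of Mrpl23 is uncertain. The level on the pseudogene lies near that of Mrpl18. The other processed pseudogenes of members in the tables, Mrpl48-ps and Mrps36-ps1 to Mrps36-ps3, had 0 counts in both libraries.

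In the small subunit, Mrps21 (bS21m) was the highest by its mean but uneven, at 36.8 and 97.9 rescaled TPM from 39 and 152 counts. Mrps17 (uS17m) showed the same direction at 21.2 and 71.4, and Mrps12 (uS12m), a protein of the decoding centre, had 31.9 and 45.7. Mrps14 (uS14m) went the other way at 48.8 and 20.8. The values of Mrps15 (uS15m), 28.9 and 37.9, and Mrps35 (mS35), 30.6 and 30.2, lay closer together. Mrps16 (bS16m) had 39.4 and 20.6 and Mrps33 (mS33) 19.9 and 31.0, which completes the 8 highest.

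The 5 lowest small subunit genes were Mrps6, Mrps27, Mrps31, Mrps11 and Mrps10. Mrps6 (bS6m) had 0 and 2 counts, which is within the 3 counts that a count of 0 allows (0.892 and 0.555 rescaled TPM at an effective length of 1 kb). Mrps27 (mS27), an RNA-binding protein of the pentatricopeptide repeat family, had 21 counts in replicate 1 and 1 in replicate 2. Mrps31 (mS31) had 22 and 7 counts and Mrps10 (uS10m) 29 and 6, so that both fell under 10 counts in the deeper library. The 7 members without 10 counts in both libraries were Mrps6, Mrps27, Mrps31, Mrps10, Mrpl11, Mrpl23 and Mrpl34 (34 and 5 counts). Mrps11 (uS11m), at 5.35 and 3.33 rescaled TPM, overlaps Mrpl46 on the opposite strand by 413 bases, and whether the counting used strand is not given in the sources used here.

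Symbols do not always give the place of a protein. Mrps30 (mL65) at 12.2 and 14.3 rescaled TPM and Mrps18a (mL66) at 9.62 and 21.4 sit in the large subunit, and Mrps36, at 13.3 and 20.2, is not counted as a part of the mitoribosome in the unified nomenclature. Of the other paralogs of Mrps18a, Mrps18b (mS40) had 33.4 and 7.85 and Mrps18c (bS18m) 19.5 and 11.8, so the 3 paralogs had a different order in each library. With subunits set by place, the log2 ratio of large to small was 0.41 and 0.14 (0.27 ± 0.19, SD, n = 2).

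Members with a bacterial counterpart and those specific to mitochondria also overlapped. The 45 with a counterpart had medians of 19.5 and 16.5 rescaled TPM, and the 31 specific to mitochondria had 13.5 and 15.5. The log2 ratio was 0.53 and 0.09 (0.31 ± 0.31, SD, n = 2), no larger than the spread between the libraries, and by scaled counts it was −0.14 and 0.04.

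Between the libraries, the share of members past 2 times in either direction was near that of other genes of their depth. Without regard to depth it was 34.7% of members and 25.1% of genes. Of 75 members with at least 20 summed counts, 9 were more than 2 times higher in replicate 2, against 12.7% of the 10231 genes tested, and 17 were more than 2 times higher in replicate 1, against 12.3%. Counts were scaled to the nuclear protein-coding total after adding 0.5. At a mean of 10 to 30 counts, 60% of 10 members and 61.3% of 1721 genes were past 2 times. At 30 to 100 counts, 37.5% of 48 members and 37.2% of 2974 genes were. Of those with 100 to 300 counts, 11.8% of 17 members and 12.7% of 2942 genes were. Both of those members were higher in replicate 2. Below 100 counts more members were higher in replicate 1, 5 against 1 at 10 to 30 counts and 12 against 6 at 30 to 100. For all genes these were 590 against 465 and 526 against 579. The median log2 ratio over the 75 members was 0.03.

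The members past 2 times came from both subunits, 16 from the large and 10 from the small. Higher in replicate 2 were Mrpl54 (10 and 138 counts), Mrpl27 (15 and 150), Mrps5 (19 and 111), Mrpl11, Mrpl4 (27 and 119), Mrps21, Mrpl50 (51 and 193), Mrps2 (54 and 181) and Mrpl45 (28 and 93). The log2 ratio of Mrpl54 was 3.09 with an SD from counting alone of 0.46, and that of Mrpl27 was 2.65 with 0.38. Mrpl27 is bL27m, whose bacterial counterpart reaches into the peptidyl transferase centre.

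Higher in replicate 1 were Mrpl48 (100 and 18 counts), Mrpl40 (95 and 25), Mrpl34, Mrps10, Mrps31, Mrpl44 (54 and 20), Mrps9 (49 and 20), Mrpl35, Mrpl36 (63 and 30), Mrps18b (70 and 35), Mrps22 (35 and 19), Mrpl1 (76 and 46), Mrps23 (79 and 52), Mrpl32, Mrpl42 (112 and 80), Mrpl49 (87 and 67) and Mrps27. The log2 ratio of Mrpl48 was −3.07 with an SD from counting of 0.36, and that of Mrpl40 was −2.54 with 0.32.

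**Figure D2:**
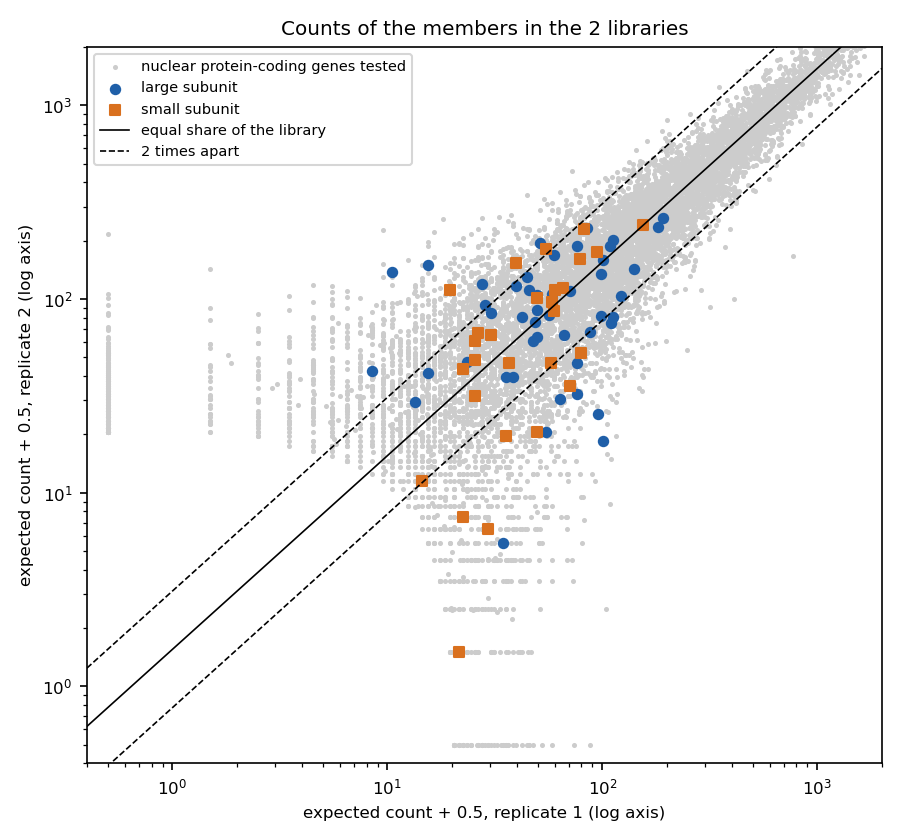
Expected count + 0.5 in replicate 1 against replicate 2 (log axes) for the tested members of the large (circles) and small subunit (squares), over all nuclear protein-coding genes tested (grey). The solid line marks equal shares of the libraries and the dashed lines 2 times apart; 26 of the 75 members lie beyond the dashed lines, inside the grey cloud.

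Across the 77 members, rescaled TPM of the libraries had a Pearson r of 0.65 and a Spearman rho of 0.60, and across the 70 detected members both were 0.52. Across the 9196 detected genes, whose levels span a wider range, they were 0.92 and 0.89. Genes are not independent replicates, so these values are descriptions. Longer members had lower levels: the rank correlation of effective length and rescaled TPM was −0.52 and −0.51, against −0.32 and −0.33 for the detected genes, while for expected counts it was 0.16 and 0.15. The 45 members with an effective length under 1000 bases had medians of 24.8 and 23.7, and the 32 longer ones had 10.1 and 10.1, with similar median counts (49 and 80 against 52.5 and 94.5).

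Transcript assignment differed between the libraries for many members. The 77 genes have 275 transcripts in the tables. Protein-coding transcripts carried 71.0% and 76.0% of the members' TPM, those typed for nonsense-mediated decay 11.4% and 5.10%, processed transcripts 10.1% and 10.2%, and retained introns 7.41% and 8.72%. Over all nuclear protein-coding genes without adult globins, nonsense-mediated decay types carried 2.28% and 2.20% and processed transcripts 6.70% and 6.67%. Retained introns went the other way, with 10.2% and 10.2% over those genes, more than in the members. By expected counts, which do not weight short transcripts up, coding transcripts of members carried 80.6% and 82.4%. Over all nuclear protein-coding genes without adult globins they carried 87.4% and 87.3% of counts.

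**Figure D3:**
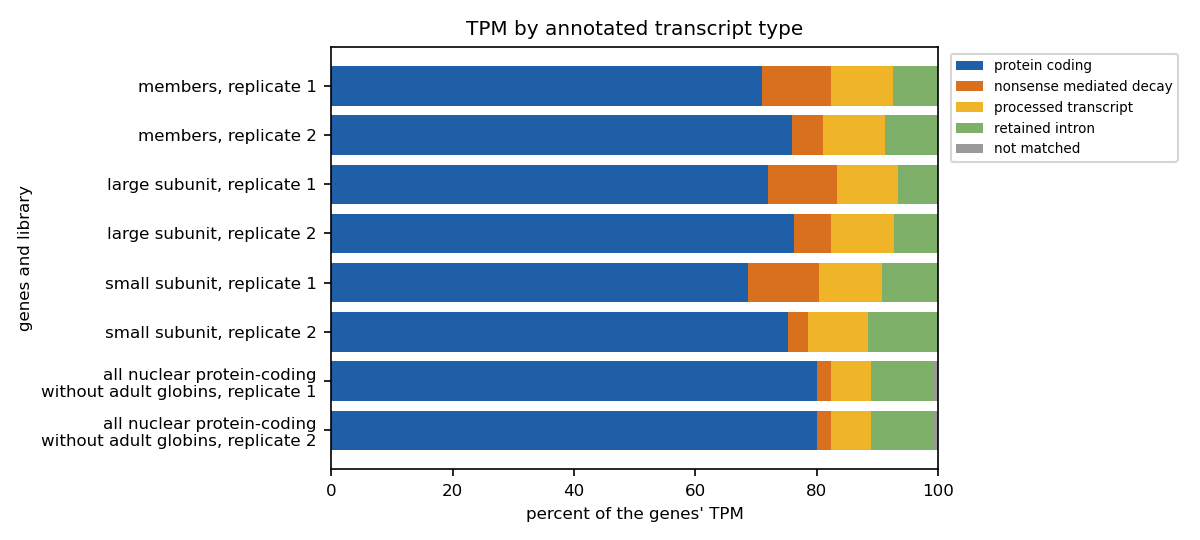
Percent of TPM carried by each annotated transcript type, in each library, for all members, for each subunit, and for all nuclear protein-coding genes without adult globins. Members' bars show 71.0% and 76.0% from protein-coding transcripts, beside 80.0% and 80.1% for all nuclear protein-coding genes without adult globins.

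Of the 70 detected members, 50 had the same leading transcript in both libraries and 20 did not. In 13 the leading transcript was noncoding, a retained intron or a decay target in both libraries. Of the 70, 15 have a single annotated transcript and could not differ. The same shares over all detected genes are not given here, so these counts do not set the members apart from other genes. Mrpl51 was led by the retained intron form Mrpl51-203 in replicate 1 (84.2% of its TPM) and by the processed transcript Mrpl51-202 in replicate 2 (66.5%), while its coding transcript held 15.8% and 0.712%. Mrpl13 (uL13m) was led by the decay form Mrpl13-202 (81.5%) in replicate 1 and the coding form Mrpl13-205 (70.8%) in replicate 2. Mrpl20 (bL20m) was led by the processed transcript Mrpl20-204 (77.4%) and the coding Mrpl20-206 (64.0%) in turn, at a gene level of 34.0 and 34.5 rescaled TPM. Mrps12 was led by the processed transcript Mrps12-203 in both (89.9% and 54.9%), and Mrpl15 (uL15m) by Mrpl15-201, a decay form, at 48.7% and then by the processed Mrpl15-202 at 66.8%. Mrpl30 and Mrps21, the highest of each subunit, were led by the same coding transcripts in both libraries, at 51.9% and 91.3% for Mrpl30-207 and 51.2% and 59.7% for Mrps21-202. Mrps17 was led by coding transcripts in both, Mrps17-203 at 68.0% and then Mrps17-201 at 47.9%.

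Where reads were assigned to transcripts of another length, TPM and counts could part. Mrps14 had 94 and 175 counts, a ratio of 1.20 after scaling, yet its rescaled TPM was 48.8 and 20.8. In replicate 1 its decay form Mrps14-201 took 87.3 counts, and in replicate 2 the coding Mrps14-203, with a longer effective length, took 142. Mrps5 (uS5m) had 19 and 111 counts against 8.98 and 5.69 rescaled TPM. In all, 6 of 75 members had opposite directions by the 2 units, and 22 were past 2 times in the same direction by both. Neither share over all tested genes is given here, so these counts do not set the members apart from other genes.

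Relative to other gene groups, the members were far below the cytoplasmic ribosome and below the respiratory chain. The 80 genes named as cytoplasmic ribosomal proteins, which include Rps19bp1 by its symbol, had medians of 486 and 538 rescaled TPM, and only 1 of them was past 2 times between the libraries. Among the highest were Rps2 with 1284 and 1678, Rps12 with 1086 and 1420, and Rpl41 with 957 and 1119. The lowest were Rpl27, at 155 and 63.9, and Rps19bp1, at 17.1 and 15.9. The log2 ratio of the member median to theirs was −4.98 and −5.03 (−5.00 ± 0.03, SD, n = 2), a difference far larger than the spread between the libraries.

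The 85 nuclear genes of oxidative phosphorylation had medians of 54.7 and 51.0 rescaled TPM, so the member median was lower by a log2 ratio of −1.83 and −1.63 (−1.73 ± 0.14, SD, n = 2). Their highest were the ATP synthase genes Atp5b (565 and 490) and Atp5h (289 and 313), Cox4i1 (243 and 295) of cytochrome oxidase and Uqcrh (201 and 227) of complex III. Of these 85 genes, 5 had 0 counts in both libraries: Cox8b, Cox8c, Cox6a2, Cox7b2 and Ndufa4l2. By scaled counts the direction was the same and the distance smaller, at −1.27 and −1.22.

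The organelle's own rRNA was in another range. The small subunit rRNA mt-Rnr1 stood at 365270 and 356540 deposited TPM and the large subunit rRNA mt-Rnr2 at 417259 and 428669, a log2 ratio of large to small of 0.19 and 0.27. As deposited, all 77 members together summed to 76.4 and 84.8 TPM.

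**Figure D4:**
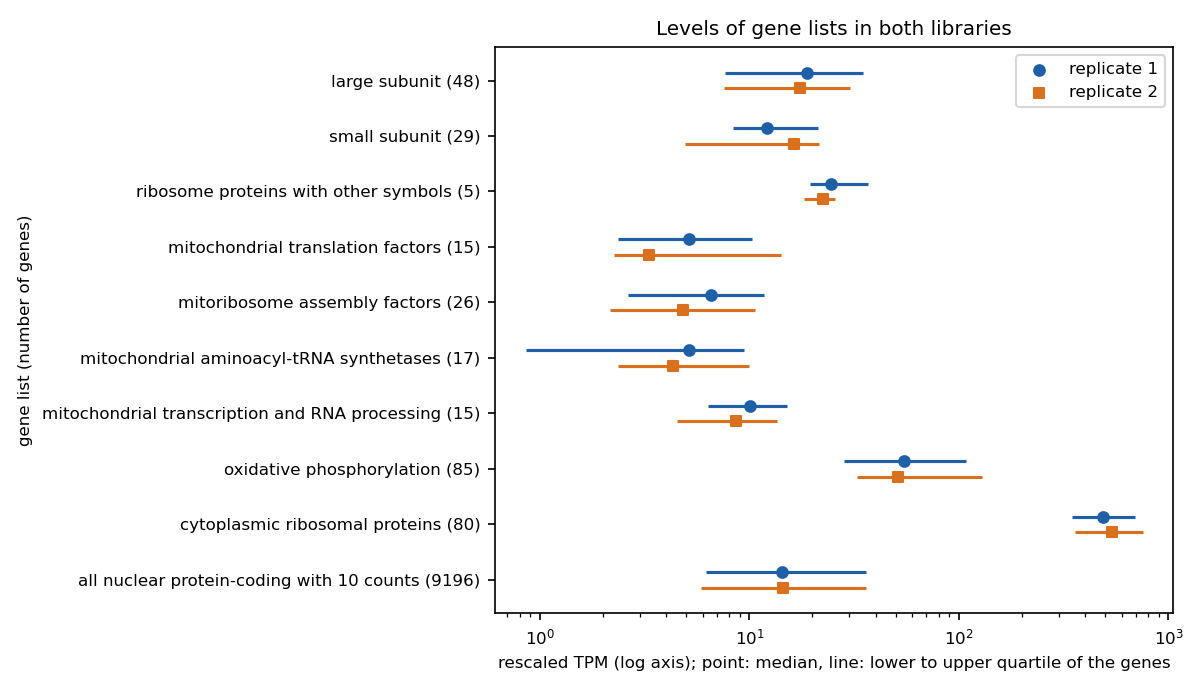
Median (points) and lower to upper quartile (lines) of rescaled TPM (log axis) for gene lists in replicate 1 and replicate 2, with the number of genes in brackets. Both subunits lie beside all detected genes, below oxidative phosphorylation and far below the cytoplasmic ribosomal proteins, and above the translation and assembly factors.

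Other genes of mitochondrial translation were mostly lower than the ribosomal proteins. The 5 mitoribosome proteins with other symbols were all detected, with medians of 24.6 and 22.6 rescaled TPM: Dap3, a GTP-binding protein of the small subunit, had 47.3 and 41.0, Aurkaip1 36.8 and 25.5, Ptcd3 19.5 and 22.6, Gadd45gip1 24.6 and 12.4, and Chchd1 10.5 and 18.2. None of the 5 was past 2 times between the libraries.

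Of 15 translation factors 12 were detected, with medians of 5.13 and 3.33. Lrpprc, which stabilises mitochondrial mRNA, led with 38.3 and 61.4, followed by its partner Slirp (11.8 and 21.8) and the elongation factors Gfm2 (8.77 and 15.9) and Gfm1 (100 and 170 counts). The lowest were the release factor Mtrf1 (1.07 and 1.18) and the initiation factor Mtif3 (0.642 and 0.588).

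Of 26 assembly factors 19 were detected, with medians of 6.52 and 4.80. The rRNA methyltransferase Mrm1 stood apart at 159 and 132 rescaled TPM from 1060 and 1663 counts, ahead of Mterf3 (21.0 and 53.0), Trub2 (26.3 and 26.9) and Noa1 (33.4 and 4.51). Mtg2 and Rpusd3 were lowest, with 0 and 1 count and with 0 in both.

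Of 17 mitochondrial aminoacyl-tRNA synthetases 12 were detected, with medians of 5.13 and 4.31. Lars2, the leucine enzyme, stood at 3007 and 2512 rescaled TPM from 37903 and 50659 counts, while the next, Iars2, had 17.1 and 24.7, Fars2 18.6 and 11.2, and Yars2 19.2 and 7.45. Whether reads of other RNA, such as mt-Rnr2 with 43455252 and 65049081 counts, were assigned to Lars2 was not tested. Its level is therefore uncertain. The lowest were Sars2 (5 and 1 counts) and Ears2 (8 and 1). All 15 genes listed under mitochondrial transcription and RNA processing were detected, with medians of 10.1 and 8.63, led by Pnpt1 (37.6 and 23.5), Hsd17b10 (32.7 and 21.2), Grsf1 (16.5 and 26.9) and Polg (16.5 and 12.9), with Trmt10c (6.63 and 1.76) and the helicase Twnk (0.855 and 3.33) lowest. Polg and Twnk act in copying mitochondrial DNA, so the list is wider than its name.

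In the genome, members often started back to back with another gene. Of the 77, 18 (23.4%) had the start of a protein-coding gene on the opposite strand within 1000 bases upstream, against 6.72% of all nuclear protein-coding genes and 11.3% of those detected. The distances were mostly short, such as 66 bases for Mrpl30 and Mitd1, 45 for Mrps18b and Ppp1r10, and 26 for Mrpl54 and Apba3. Partners could lie far apart in level. Mrpl49 stood at 16.3 and 7.85 rescaled TPM beside Fau, a fusion precursor of a cytoplasmic ribosomal protein, at 398 and 382. Mrpl32 had 51.1 and 22.6 beside 151 and 165 for the proteasome gene Psma2, and Mrps12 had 31.9 and 45.7 beside 0.855 and 0.196 for Sars2. Others lay closer, such as Mrpl57 at 6.42 and 5.10 beside Ska3 at 11.5 and 15.9.

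Between the libraries, some partners moved alike and others did not. The log2 ratios of replicate 2 to replicate 1 were 0.15 for Mrpl51 and 0.09 for its partner Ncapd2, and −0.27 for Mrpl30 and −0.68 for Mitd1. Mrpl54 had 10 and 138 counts where Apba3 had 7 and 10, and Mrps18b had 70 and 35 where Ppp1r10 had 550 and 871. Mrps27, whose shared stretch with Ptcd2 is printed above, had 21 and 1 counts beside 74 and 48. For Mrps18c and Helq the counts were 25 and 31 beside 29 and 115, and for Mrpl10 and Lrrc46 they were 48 and 76 beside 27 and 0. By chromosome, 11 members (14.3%) lay on chromosome 11, which holds 7.57% of nuclear protein-coding genes, and 8 (10.4%) on chromosome 17, which holds 4.81%.

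RefSeq promoter windows of 300 bases, from 250 before to 50 after a gene's start, were matched for 68 members, without Mrpl4, Mrpl13, Mrpl15, Mrpl19, Mrpl38, Mrpl54, Mrps28, Mrps34 and Mrps35. Besides the NRF1 and ETS letters given above, the searches were for AAGATGGC as YY1, GGGCGG as SP, CCAAT under its own name, TGACGTCA as CRE, CACGTG as the E-box, TATAAA as the TATA box and AGATAA as the GATA motif, each on both strands. No motif lies whole within another, but neighbouring motifs can share letters at their ends. A match only says that the letters are there.

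The ETS letters were in 24 of 68 member windows (35.3%, 95% exact binomial interval 24.1 to 47.8), against 20.9% of 7361 detected genes and 9.12% of all 27025 windows. YY1 letters were in 12 (17.6%, interval 9.47 to 28.8), against 5.49% and 2.88%, and NRF1 letters in 7 (10.3%, interval 4.24 to 20.1), against 4.22% and 1.81%. In windows from 100 bases before the start, NRF1 letters were in 4 members (5.88%, interval 1.63 to 14.4), against 3.10% of detected genes, a share within the interval. The SP letters were in 34 of the 68 (interval 37.6 to 62.4), against 66.2% of detected genes and 35.9% of all. CCAAT was in 38.2%, near the 39.3% and 37.9% of the other sets, CRE in 2.94%, E-box in 7.35% and TATA in 5.88%. GATA letters were in 10 (14.7%, interval 7.28 to 25.4), against 6.05% of detected genes and 11.4% of all.

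Levels of members with and without these letters overlapped. The 24 with ETS letters had medians of 19.9 and 21.0 rescaled TPM and the other 44 had 12.4 and 14.9. The 7 with NRF1 letters had 24.8 and 21.4 against 16.3 and 15.5. The 12 with YY1 letters had 16.6 and 18.8 against 16.8 and 15.5. Such distances were not particular to these motifs. The 26 with CCAAT had 21.3 and 21.0 against 13.2 and 12.3, and the 5 with E-box letters 24.6 and 25.5 against 13.5 and 15.5. Members with TATA or GATA letters also had higher medians in both libraries, and for SP and CRE the order turned between the libraries. NRF1 and ETS letters were both present in 3 members, of which Mrpl22 is printed above, and either was present in 28. Mrpl30, the highest member, had none of the 9 motifs in its window. Mrps27, among the lowest, has the ETS letters between its start and that of Ptcd2.

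**Figure D5:**
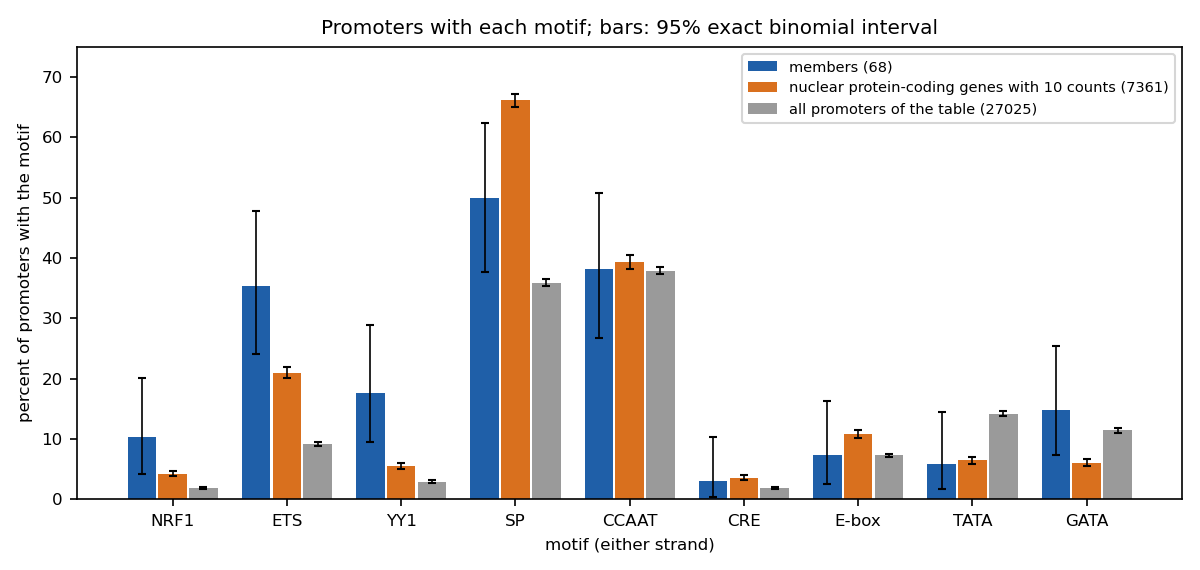
Percent of promoter windows that hold each motif on either strand, for 68 members, 7361 detected nuclear protein-coding genes and all 27025 windows of the table; error bars are 95% exact binomial intervals. For ETS, YY1 and, narrowly, NRF1 the members' lower bounds (24.1%, 9.47% and 4.24%) lie above the shares of both other sets. For SP the members' upper bound (62.4%) lies below the 66.2% of detected genes. In windows from 100 bases before the start, the lower bound of NRF1 (1.63%) does not lie above the share of detected genes.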

How the data were processed

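Total RNA of 2 erythroblast libraries was analysed from each library's gene and transcript tables. Per the deposited read-me, the authors quantified them on mm10 with GENCODE M4. Which aligner and quantifier made them is not given in the sources used here. Expected counts, as deposited, are estimates that share out reads matching several places. The authors scaled the deposited TPM over all rows, mitochondrial rRNA and spike-ins included. FPKM and the posterior mean of TPM (a score), per the file headers, served as alternatives. The deposited percent of a gene's TPM per transcript was read beside shares computed here.

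Symbols, gene types and coordinates came from GENCODE M21, matched by Ensembl identifier. Mrpl33 was not analysed here. Adult globin genes are Hba-a1, Hba-a2, Hbb-bs and Hbb-bt. TPM were rescaled to nuclear protein-coding genes. Library ratios used counts + 0.5 for genes with at least 20 summed counts. Counts were rounded for the TMM factors of edgeR 4.0.16 and the size factors of DESeq2 1.42.0, used as scalings only. The ratio step was tested on simulated counts. The alignment of Mrpl23 with its pseudogene used Biopython 1.88. A count of 0 allows up to 3 counts. As the labels name no molecular identifiers, this limit and the SD from counting cover counting error only. The binomial intervals of motif shares take windows as independent draws, although genes are not independent replicates.

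Named were, per subunit, the 8 highest and 5 lowest members by mean rescaled TPM, and members under 10 counts in a library, past 2 times, with ambiguous placement (Mrps30, Mrps18a to Mrps18c, Mrps36) or, for up to 10, with a changing, noncoding or under 60% leading transcript. From each other list the 4 highest and 2 lowest were named, with Mrpl12, mt-Rnr1 and mt-Rnr2, except for items not reported here. Others were named for their role or neighbour after their values were seen. The members and lists were chosen with earlier results of these data known.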

Additional observations from a re-analysis of the deposited data

Results flagged for a closer look

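Reads outside the members' comparisons were found on the processed pseudogene Mrpl23-ps1, which held 81 expected counts in replicate 1 and 90 in replicate 2. The gene Mrpl23 itself had 0 in both, and no control samples exist to set them against. Both values are far above the 3 counts that a count of 0 allows. They do not tell which copy was read, because reads within the shared 540 bases cannot be assigned by sequence.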

How the results depend on the processing

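Of 96 recomputed values, 69 kept their direction and lay within the spread used for them, 25 moved and 2 reversed. For results given as a mean and SD of the 2 libraries, the value of either library alone always lies within that SD. Those values are counted among the 69 although they could not have moved, so the count is no measure of robustness. The reversals came with scaled counts in place of rescaled TPM: the log2 ratio of members with a bacterial counterpart to those specific to mitochondria became −0.052, and that of the member median to all detected genes −1.10 (0.023 by the posterior mean). The large to small log2 ratio moved to 1.06 only for summed values, where the number of members counts. It was 0.09 and 0.63 with either library left out, and 0.09 to 0.53 for the bacterial class. Members detected were 22 at a deposited TPM of 1, 41 at a rescaled TPM of 10 and 19 at an FPKM of 1, and 71 to 74 with either library left out. The median level, 15.4 to 16.5 by library, was 28.2 without globins in the total, 18.2 over members with 10 counts, and, chosen after seeing the data, 9.69 over coding transcripts and 16.8 with the Mrpl23-ps1 reads given to Mrpl23. The members' percent of TPM, 0.163 to 0.166 by library, became 0.292 without globins, 0.103 by counts and 0.174 by the posterior mean. Members past 2 times were 2 of 17 at a mean of 100 counts, with a median log2 ratio of 0.21, against 25 to 28 under the other settings. Against cytoplasmic ribosomal proteins the log2 ratio was −4.23 by counts, −4.92 by the posterior mean, −4.81 over detected genes and −5.57 over coding transcripts, and −5.03 to −4.98 by library. Against oxidative phosphorylation it was −1.25 by counts and −2.17 over coding transcripts, and −1.83 to −1.63 by library. Against all detected genes it was 0.10 to 0.18 by library. Coding transcripts carried 81.5% by counts and 77.1% without Mrpl2 and Mrpl32, and 71.0% to 76.0% by library. In windows starting 100 bases before the start, CCAAT was in 26.5%, TATA in 1.47% and GATA in 2.94% of member promoters. Detected genes had 26.8%, 2.76% and 2.05% in the same windows, where each motif was also less frequent than in the longer ones. No paired analysis was possible because the libraries form 1 group. Single members were read at low depth, with a median of 49 and 80 counts. A change of 2 times between these libraries was seen in 37.2% of all genes with a mean of 30 to 100 counts. In those genes the median absolute log2 ratio was 0.737, where counting alone would give 0.196. Of the 75 tested members, 41 had a ratio beyond 2 SD from counting. The share over all tested genes is not given here, so this count does not set the members apart. What else set the libraries apart was not tested. NRF1 letters were in 5.88% of the members' shorter windows, against 3.10% for detected genes.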
